A study of Homo sapiens with 4 samples.

Results

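Pairs of protein-coding genes that start close together on opposite strands and are read away from each other were examined for RNA polymerase II (Pol II) peaks. A pair was taken where the minus-strand transcription start site (TSS) lay left of the plus-strand TSS and the 2 were at most 1 kb apart on chromosomes 1 to 22 or X. The TSS was the outer 5' bound of a gene in GENCODE release 44 on GRCh38. The rule gave 887 pairs, made of 1710 genes, which is 8.56% of the 19970 protein-coding TSSs on these chromosomes. Because some genes had several partners, the pairs lay in 824 separate loci, and 80 pairs involved a readthrough gene model. Each pair is written with its minus-strand gene first.

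The peaks came from chromatin immunoprecipitation and sequencing (ChIP-seq) in SK-OV-3, an established human ovarian cancer cell line. The control cells carried a short hairpin RNA against LacZ (shLacZ), a bacterial gene that the human genome lacks, and the other cells carried a hairpin against RRN3 (shRRN3), an initiation factor of RNA polymerase I, the enzyme that makes ribosomal RNA. The experiment asked whether RRN3 influences Pol II transcription. Both groups are stable lentiviral derivatives of the same line, and the sources used here do not say whether they were clones or pools, or which hairpin against RRN3 was used.

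The labels list 4 samples, of which the Pol II library of each hairpin has a peak list. The inputs were not used here. The chromosomes examined carried 3920 peaks in shLacZ and 14322 in shRRN3. A peak list holds no reads, so sequencing depth cannot be read from these data and was not analysed here. With 1 library per hairpin there is no replicate spread and no p-value. The 95% intervals below run over regions, cover counting error only, treat regions as independent and compare the libraries, not the conditions. Fewer cells with Pol II at a promoter and less Pol II per cell cannot be told apart. PAX8, a transcription factor kept in many ovarian cancers, had a TSS peak in both lists. Among the other 10 epithelial and ovarian cancer genes looked at, KRT8 and EPCAM had one in shRRN3 alone and 8 had none, while the 4 blood cell genes looked at had none. RRN3 itself had no TSS peak in either list, and Pol II peak lists give no check of its silencing.

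A head-to-head pair shares the short stretch between its starts, which then serves as promoter for both genes. Such shared promoters are usually rich in CpG dinucleotides and poor in TATA boxes, and they are common among genes for DNA repair, mitochondrial proteins and histones. Pol II loads there in both directions, and ChIP-seq does not tell on which strand a polymerase was engaged.

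The starts were close together. The distance between the TSSs ran from 1 to 995 bp with a median of 132 bp and quartiles of 69 and 248.5 bp, and 717 pairs (80.8%) had a distance of at most 300 bp. The stretches between the starts are shown for 6 of the pairs whose peaks scored highest, to show the DNA that both genes share. All are plus-strand GRCh38 sequence. They were chosen to overlap no annotated exon, which left out H2BC4-H2AC6 and the pair of C6orf120 with an unnamed gene model. The distance between the TSSs was also limited, to at most 300 bp and with a lower limit. This left out H3C12-H2BC17 (319 bp) and SRSF7-GEMIN6 (40 bp), so the choice itself bounded the lengths of the stretches. Capitals mark exact matches, on either strand, to any of 10 motifs. These were TATAAA (the core of a TATA box), CCAAT (bound by NF-Y), CCGGAAG (ETS family), GCGCATGC (NRF1), GGGCGG (GC box), TGACGTCA (CRE), CTCGCGAG (a palindrome of CpG-rich promoters), AAGATGGC (YY1), CACGTG (E box) and ATGCAAAT (octamer). On the reverse strand TATAAA reads TTTATA, and both readings can overlap in TTTATAAA. The stretches lie at chr6:27132796-27133042 (H2BC11-H2AC11), chr12:54280134-54280192 (CBX5-HNRNPA1), chr9:127451407-127451488 (RPL12-LRSAM1), chr6:27893186-27893424 (H2AC17-H2BC17), chr15:88467391-88467452 (MRPL46-MRPS11) and chr3:9793012-9793081 (TADA3-ARPC4-TTLL3).
H2BC11-H2AC11: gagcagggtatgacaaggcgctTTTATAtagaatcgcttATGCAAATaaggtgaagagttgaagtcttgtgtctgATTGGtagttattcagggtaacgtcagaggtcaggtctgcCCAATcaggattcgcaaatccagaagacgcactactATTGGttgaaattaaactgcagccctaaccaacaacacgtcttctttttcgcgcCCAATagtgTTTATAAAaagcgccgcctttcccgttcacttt
CBX5-HNRNPA1: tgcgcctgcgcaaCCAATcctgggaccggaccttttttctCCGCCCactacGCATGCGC
RPL12-LRSAM1: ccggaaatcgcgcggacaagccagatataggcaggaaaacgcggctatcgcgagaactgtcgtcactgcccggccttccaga
H2AC17-H2BC17: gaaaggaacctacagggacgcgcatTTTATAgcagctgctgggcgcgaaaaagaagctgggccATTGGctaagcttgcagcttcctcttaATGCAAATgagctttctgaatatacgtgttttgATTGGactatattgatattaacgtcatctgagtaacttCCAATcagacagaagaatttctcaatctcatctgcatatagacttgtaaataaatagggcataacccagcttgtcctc
MRPL46-MRPS11: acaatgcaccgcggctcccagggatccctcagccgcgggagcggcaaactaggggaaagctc
TADA3-ARPC4-TTLL3: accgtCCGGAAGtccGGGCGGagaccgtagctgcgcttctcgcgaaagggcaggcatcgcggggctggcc

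The 2 histone stretches, 247 and 239 bp long, held octamer matches as well as matches to CCAAT and to the TATA box core and had a GC content of 43.7% and 41.4%. The other 4 were 59 to 82 bp long with a GC content of 59.8% to 71.4%. They held no TATAAA, and the stretches of RPL12-LRSAM1 and MRPL46-MRPS11 held none of the 10 motifs.

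Pol II peaks were found at 124 pairs (14.0%, 11.8% to 16.4%) in shLacZ and at 436 pairs (49.2%, 45.8% to 52.5%) in shRRN3. A pair counted as occupied when a peak shared at least 1 bp with the stretch between its TSSs widened by 500 bp on each side. A window of 500 bp on each side of single TSSs held a peak at 7.24% of all protein-coding TSSs in shLacZ and at 23.1% in shRRN3. The window of a pair is longer by the distance between its TSSs. With 500 bp on each side of the pair centre instead, 13.75% and 48.25% of the pairs were occupied. Both lists had a peak at 113 pairs (12.7%), against 6.19% of all protein-coding TSSs. A peak in shLacZ alone was found at 11 pairs (1.24%, background 1.05%), and one in shRRN3 alone at 323 pairs (36.4%, background 16.9%). At equal list length, with shRRN3 cut down to its best-scoring peaks, these counts were 54 and 117. The remaining 440 pairs (49.6%) had no peak in either list.

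The pairs were occupied more often than single starts in each library. Of 10389 isolated TSSs, those of protein-coding genes with no other annotated TSS within 5 kb, 4.35% had a peak in shLacZ and 14.8% in shRRN3. The pairs exceeded them by 9.63 percentage points (7.46 to 12.1) in shLacZ and 34.3 points (31.0 to 37.7) in shRRN3, which is 3.21-fold and 3.32-fold. At equal list length the excess in shRRN3 was 15.7 points (13.1 to 18.5). A pair has 2 starts, and 2 independent isolated TSSs would hold at least 1 peak in 8.51% and 27.4% of cases. The pairs lay above that by 5.47 points (3.25 to 7.93) and 21.7 points (18.4 to 25.1).

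Head-to-head pairs of a protein-coding gene with a long noncoding RNA (lncRNA) gene were a closer comparison. There were 1425 of them that shared no gene with the protein-coding pairs, and 14.0% had a peak in shLacZ and 39.2% in shRRN3. In shLacZ the protein-coding pairs differed from them by 0.015 points (-2.84 to 2.99). In shRRN3 they were higher by 9.93 points (5.77 to 14.1). At equal list length that difference was 1.503 points (-1.83 to 4.94).

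**Figure D1:**
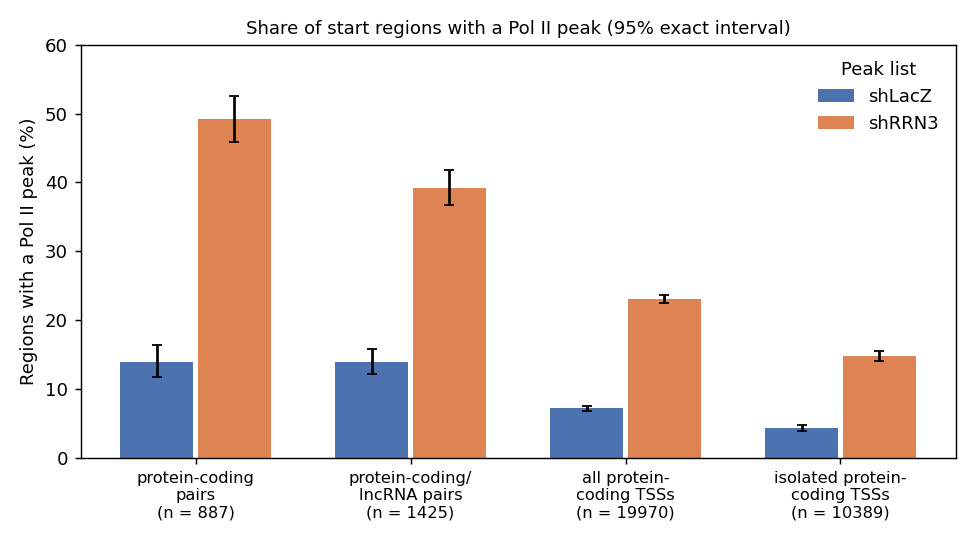
Share of start regions with a Pol II peak (vertical axis, percent) in shLacZ (blue) and shRRN3 (orange) for 4 kinds of start, with exact 95% intervals as error bars. Protein-coding pairs stood at 14.0% and 49.2%, isolated TSSs at 4.35% and 14.8%.

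The plot of occupied shares shows that the bars for pairs with a lncRNA gene overlap those for protein-coding pairs in their intervals in shLacZ and lie lower in shRRN3. The rise from one list to the other was of similar size at pairs and at isolated TSSs. The occupied share was 3.52 times as high in shRRN3 as in shLacZ at the pairs (3.01 to 4.10) and 3.41 times at isolated TSSs (3.13 to 3.70). At equal list length, 187 pairs (21.1%) were occupied and the ratio was 1.51 (1.27 to 1.79) at pairs, 1.25 (1.14 to 1.37) at isolated TSSs and 1.40 (1.25 to 1.58) at pairs with a lncRNA gene. Peaks at the pairs made up 3.14% of the shLacZ list and 3.11% of the shRRN3 list.

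Most pairs occupied in shLacZ also had a peak in the longer shRRN3 list. Of the 124 pairs, 113 (91.1%, 84.7% to 95.5%) also had a shRRN3 peak, against 78.3% of isolated TSSs, a difference of 12.8 points (5.56 to 18.4). The share was 85.5% over all protein-coding TSSs and 90.4% at pairs with a lncRNA gene, from which the protein-coding pairs differed by 0.68 points (-6.47 to 6.89). At equal list length it was 56.5% at the protein-coding pairs and 48.5% at isolated TSSs, a difference of 8.0 points (-1.92 to 17.6). It was then 69.8% at pairs with a lncRNA gene, and the protein-coding pairs minus these gave -13.4 points (-24.0 to -2.65). Among starts whose shLacZ peak scored above the median of its list, the shares were 93.4% and 85.1%, which differ by 8.32 points (-0.48 to 14.5). Among those at or below it they were 87.5% and 69.5%, which differ by 17.96 points (4.36 to 27.4). In the other direction, 25.9% of the pairs occupied in shRRN3 had a shLacZ peak, and 23% of the isolated TSSs, a difference of 2.92 points (-1.54 to 7.68). At pairs with a lncRNA gene it was 32.2%, and the difference was -6.28 points (-11.8 to -0.58).

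The distance between the starts made no difference that the intervals could separate. From the shortest distances (1 to 100 bp) to the longest (501 to 1000 bp), the shLacZ share was 15.2%, 12.6%, 19.7%, 9.57% and 9.21% in 5 successive bins, and the shRRN3 share was 52.1%, 45.5%, 51.6%, 46.8% and 47.4%. Pairs at most 300 bp apart minus those farther apart gave 5.65 points (-0.21 to 10.2) in shLacZ and 2.59 points (-5.73 to 10.8) in shRRN3. Around the 1 kb limit of the rule, 2 of 30 pairs at 801 to 1000 bp had a shLacZ peak and 14 a shRRN3 peak, and just outside it, at 1001 to 1200 bp, 3 and 10 of 14 pairs did.

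Base composition separated the pairs more clearly. Over the 1 kb around the pair centre the median GC content was 61.7%, against 57.3% at isolated TSSs, and the ratio of observed to expected CpG was 0.78 against 0.60. Isolated TSSs with a peak were near the pairs, with 61.2% and 0.80 in shLacZ and 60.5% and 0.78 in shRRN3. Those with no peak had 56.4% and 0.49. The pairs were cut into 5 bands of GC. In shRRN3, 55.4% of the pairs in the lowest band were occupied and 35.0% of those in the highest, a difference of 20.4 points (10.2 to 30.1). In shLacZ the shares were 17.9% and 9.60%, a difference of 8.33 points (1.18 to 15.4). Isolated TSSs had their lowest share in the first band, with 9.80%, 21.3%, 21.2%, 21.8% and 15.2% occupied in shRRN3 from the lowest band to the highest. Their lowest minus highest band was -5.38 points (-7.30 to -3.57) in shRRN3 and -2.65 (-3.84 to -1.60) in shLacZ, although their share also fell from the fourth band to the fifth. Within the bands and averaged over them with the pairs' weights, pairs exceeded isolated TSSs by 31.4 points (28.0 to 34.8) in shRRN3 and 8.58 points (6.25 to 10.9) in shLacZ.

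**Figure D2:**
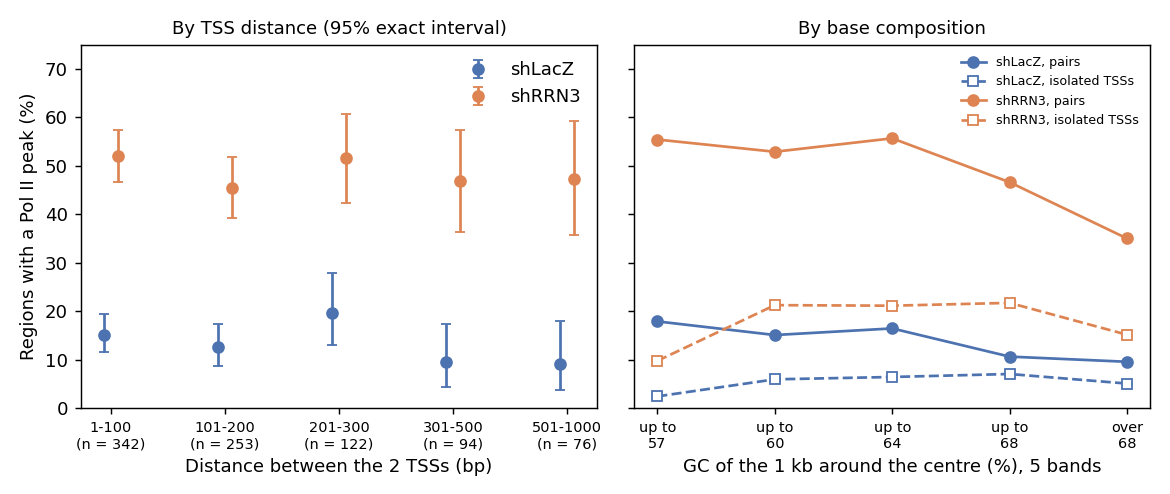
Share of regions with a Pol II peak (vertical axes, percent) by the distance between the TSSs of a pair (left, in bp, with exact 95% intervals) and by GC content of the surrounding 1 kb (right, in percent, pairs as filled circles and isolated TSSs as open squares). The share at pairs was 52.1% in shRRN3 at 1 to 100 bp and 47.4% at 501 to 1000 bp, while from the lowest to the highest GC band it went from 55.4% to 35.0%.

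The plot by distance and GC shows the pairs above the isolated TSSs in all 5 GC bands in each library. The gap in the shLacZ list was smallest in the fourth band, at 3.59 points (-0.47 to 9.14).

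Most peaks at the pairs covered both starts. The highest-scoring peak covered both TSSs at 75 of 124 pairs (60.5%) in shLacZ and at 309 of 436 (70.9%) in shRRN3. It covered the minus-strand TSS alone at 16 and 44 pairs, the plus-strand TSS alone at 17 and 39, and neither TSS at 16 and 44. Its midpoint fell between the TSSs at 26 pairs in shLacZ and 132 in shRRN3. More than 1 peak was present at 7 pairs in shLacZ and 45 in shRRN3, and each TSS had a peak of its own at 5 and 8 of these.

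Neither direction held clearly more of the peaks. The peak midpoint lay on the side of the minus-strand gene at 57 pairs and on that of the plus-strand gene at 67 in shLacZ, and in shRRN3 the counts were 217 and 217, with 2 at the centre. The side tended to be kept between the lists. Of the 113 pairs with a peak in both, 81 (71.7%, 62.4% to 79.8%) had it on the same side. At isolated TSSs the midpoint was on the same side of the TSS in both lists at 262 of 354 (74.0%).

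Peaks at pairs were also wider than at isolated TSSs. The median width was 548.5 bp (509 to 597) against 458 bp (428 to 477) in shLacZ and 698.5 bp (661 to 725) against 617 bp (603 to 637) in shRRN3. A position was covered by the peaks of at least 50% of occupied pairs from -250 to 225 bp of the pair centre in shLacZ and from -325 to 325 bp in shRRN3. For isolated TSSs this stretch ran from -150 to 225 bp and from -275 to 275 bp. In shRRN3, 28.7% of pairs were covered at 500 bp on the minus-strand side and 28.0% at 500 bp on the plus-strand side, and isolated TSSs were covered in 18.4% upstream and 28.1% downstream.

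**Figure D3:**
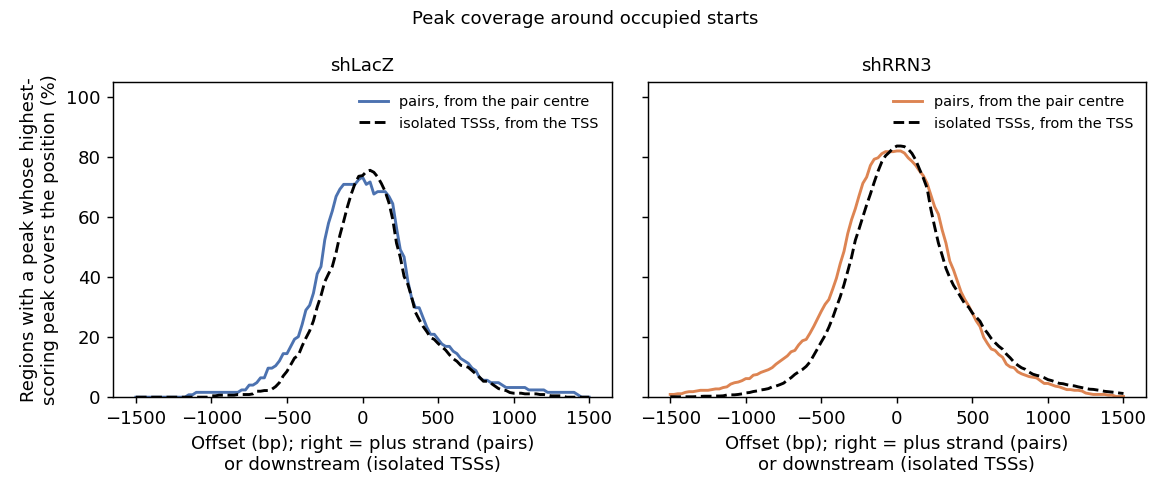
Share of occupied regions whose highest-scoring peak covers a position (vertical axes, percent) by offset in bp from the centre of a pair (solid) or from an isolated TSS (dashed), in shLacZ (left) and shRRN3 (right). In shRRN3 the curve of the pairs is near symmetric, with 28.7% and 28.0% covered at 500 bp on either side, and that of the isolated TSSs is lower upstream.

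The coverage profile shows this as more coverage on the minus-strand side of the pairs than upstream of isolated TSSs. The starts of a pair lie apart by a median of 132 bp, and the part of that distance in the widths was not tested.

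Pairs differed from isolated TSSs in motif content over windows of 300 bp. For a pair the window was centred between its TSSs, and for other TSSs it ran from 250 bp upstream to 50 bp downstream. A CCGGAAG match, the core bound by ETS family factors, was found at 27.2% of pairs, 8.12% of isolated TSSs and 11.8% of all protein-coding promoters. The GC box GGGCGG was at 70.7% of pairs, 46.6% of isolated TSSs and 52.4% of all promoters, and the NRF1 motif GCGCATGC was at 9.13%, 2.92% and 3.75%. TATAAA went the other way, with 5.19% of pairs, 13.1% of isolated TSSs and 10.8% of all promoters. A match describes these letters only, not a bound site. Of the isolated TSSs with a shRRN3 peak, CCGGAAG was held by 21.6% and TATAAA by 7.80%. The CCAAT box was at 40.6% of pairs and 35.9% of all promoters, AAGATGGC at 5.97% and 3.04%, TGACGTCA at 3.95% and 2.29%, CTCGCGAG at 2.48% and 1.21%, CACGTG at 10.1% and 8.35%, and ATGCAAAT at 1.80% and 1.70%.

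Few motifs went with occupancy of the pairs. The 46 pairs with TATAAA had a peak in 34.8% in shLacZ, against 12.8% of the pairs without (21.9 points, 9.60 to 36.5), and in 69.6% against 48.0% in shRRN3 (21.5 points, 6.77 to 33.4). Histone pairs made up 11 of the 46, and without them the differences were 9.95 points (-1.11 to 26.2) and 14.7 points (-2.16 to 29.1). Pairs with GGGCGG were occupied less often in shLacZ, by -7.43 points (-13.1 to -2.29), and pairs with CCGGAAG more often in shRRN3, by 8.28 points (0.89 to 15.5). Pairs with the octamer ATGCAAAT were occupied more often in shLacZ, by 30.3 points (9.52 to 53.5), over 16 pairs. Both histone stretches shown above hold an octamer, and the octamer comparison was not repeated without histone pairs. The intervals of the other comparisons among the 10 motifs and both lists included 0, and none was adjusted for their number.

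The pairs are described below by the roles of their genes, using 14 gene lists. A pair belongs to a list when either gene does, and most partners have another role. The background for each count is that 14.0% and 49.2% of all pairs, and 7.24% and 23.1% of all protein-coding TSSs, had a peak in shLacZ and shRRN3.

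Histone genes of the replication-dependent kind, which package newly made DNA and lie in clusters, gave 15 pairs in 13 loci, and in 14 of these both genes were histone genes. A peak was present at 8 in shLacZ and 11 in shRRN3, counted over the widened region and not at the TSSs alone. The highest-scoring shLacZ peak covered neither TSS at H2BC21-H2AC20, H2BC13-H2AC13, H3C12-H2BC17 and H2AC17-H2BC17. In shRRN3 it covered neither TSS at H2BC8-H2AC8. H2BC11-H2AC11 (chromosome 6, TSSs 248 bp apart), an H2B and an H2A gene, had a peak of 614 bp with a score of 92.18 in shLacZ and one of 3063 bp with a score of 949.99 in shRRN3. The score is that of the authors' peak caller. It depends on depth, so peaks are placed by their percentile within a list. The percentile depends on list length, and since the shRRN3 list is the longer, the percentiles below give places in each list and not a change at a pair. These peaks stood at percentiles 75.9 and 99.8, so the pair was in the upper part of the first list and near the top of the second, where no other protein-coding pair scored higher. H2BC4-H2AC6 was at percentile 63.6 in shLacZ and 99.6 in shRRN3, and H2AC17-H2BC17, which shares its peaks with H3C12-H2BC17, at 95 and 99. For these pairs of H2BC17 the shLacZ peak at 95 covered neither TSS. It did not overlap the shRRN3 peak at 99, which covered both TSSs. Of the histone pairs, 4 had no peak in either list: H2AC25-H2BC26, H2AC1-H2BC1, H2AC7-H2BC7 and a second pair of H2BC7 with an unnamed gene model at the same TSS. How reads shared between near-identical histone genes were placed is not stated, so these peaks are uncertain as to the copy.

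Pairs with genes for mitochondrial translation and respiration followed. Mitochondrial ribosomal protein genes gave 18 pairs, 6 with a peak in shLacZ and 15 in shRRN3. MRPL46-MRPS11 (chromosome 15, 63 bp apart), a large-subunit and a small-subunit gene and the one pair with both genes on this list, was at percentile 61.1 in shLacZ and 98.6 in shRRN3. MRPL10-LRRC46 was at 91.1 and 56.5. HELQ-MRPS18C was at 46.1 and 96.6. Oxidative phosphorylation genes gave 24 pairs, 7 and 15 of them occupied. WDR4-NDUFV3, which joins a tRNA-modification subunit with a complex I subunit, was at 89.5 and 52.5, and UQCC6-TDG was at 75.5 and 90.3. Mitochondrial import and chaperone genes gave 7 pairs with 1 and 6 occupied. TOMM70-LNP1, with the import receptor TOMM70, was at 40.6 and 95.4.

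Genes of the cytosolic ribosome gave 12 pairs, 4 and 8 of them occupied. RPL12-LRSAM1 (chromosome 9, 83 bp apart), a large-subunit protein gene and a ubiquitin ligase gene, had a peak of 665 bp at percentile 92.2 in shLacZ and one of 2699 bp at 99.2 in shRRN3. RPL9-LIAS was at 66.3 and 95.2. RPS16-SUPT5H, in which the partner encodes a subunit of the elongation factor DSIF, had a peak in shRRN3 alone, at 93.7. Ribosome biogenesis and RNA polymerase I genes, the group closest to the known role of RRN3, gave 35 pairs, 5 occupied in shLacZ (14.3%) and 15 in shRRN3 (42.9%), near the shares of all pairs. NOL8-CENPP was at 95.9 and POLR1A-PTCD3, with the gene of the largest RNA polymerase I subunit, at 87.5, both in shRRN3 alone.

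Splicing and 3' end processing genes gave 28 pairs, 7 occupied in shLacZ (25%) and 22 in shRRN3 (78.6%). SRSF7-GEMIN6 (chromosome 2, 40 bp apart), with genes of a splicing factor and of the SMN complex, had the highest score of the protein-coding pairs in shLacZ and was at percentile 96.7 there and 98.8 in shRRN3. CBX5-HNRNPA1 (chromosome 12, 60 bp apart), which joins the heterochromatin protein HP1 alpha and an RNA-binding protein, was at 77.2 and 99.5, and its peak midpoint lay on the CBX5 side in shLacZ and on the HNRNPA1 side in shRRN3. INTS13-FGFR1OP2, with an Integrator subunit, was at 93.1 and 96.6. Pol II subunit and general factor genes gave 22 pairs, 2 and 11 of them occupied. SERAC1-GTF2H5, with a TFIIH subunit, was at 33.8 and 93.8. SDF2-SUPT6H, with a histone chaperone of elongation, had a shRRN3 peak alone at 77.7.

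DNA repair and replication genes formed the largest list, with 45 pairs of which 4 were occupied in shLacZ (8.89%) and 20 in shRRN3 (44.4%). PRKDC-MCM4 (7 bp apart), with a repair kinase and a replicative helicase subunit, was at 67.2 and 92.9. Its shLacZ peak covered both TSSs, while its highest-scoring shRRN3 peak covered neither and lay on the MCM4 side. MRPL27-EME1 was at 90.1 in shRRN3 and XPO5-POLH, with the gene of polymerase eta, at 85.6, and neither had a shLacZ peak. Zinc finger (ZNF) genes gave 30 pairs, with 4 and 19 occupied. ELOF1-ZNF627 was at 89.7 and 81.9. Proteasome subunit genes gave 6 pairs, 0 and 3 occupied, and aminoacyl-tRNA synthetase genes 3 pairs, 0 and 2 occupied. Both COMMD pairs were occupied in both lists, CCT4-COMMD1 at 14.0 and 87.8 and COMMD6-UCHL3 at 53.1 and 79. Their peaks covered both TSSs, with the midpoint on the side of the partner, CCT4 or UCHL3, in each list.

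The list of autophagy genes used here gave 6 pairs and none had a peak in either peak list. They were ATG9A-ANKZF1, THAP4-ATG4B, ATG2A-PPP2R5B, ATG2B-GSKIP, PSMD10-ATG4A and the pair of NBR1, which together hold genes for a lipid scramblase, lipid transfer proteins, ATG8 proteases and a cargo receptor of autophagy. The exact interval for 0 of 6 runs from 0 to 45.9%. The absence holds for this choice of genes. PLPP3-PRKAA2 was not counted, although the study tested PRKAA2 among autophagy-related mRNAs. It had a peak in shLacZ alone, at percentile 3.23, which covered neither TSS. Of 23 isolated TSSs of autophagy genes, 2 had a peak in shLacZ and 10 in shRRN3. The shares over all isolated TSSs were 4.35% and 14.8%. The isolated TSSs of every other list also exceeded 14.8% in shRRN3. They ranged from 76 of 237 for zinc finger genes to 13 of 16 for cytosolic ribosomal protein genes.

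**Figure D4:**
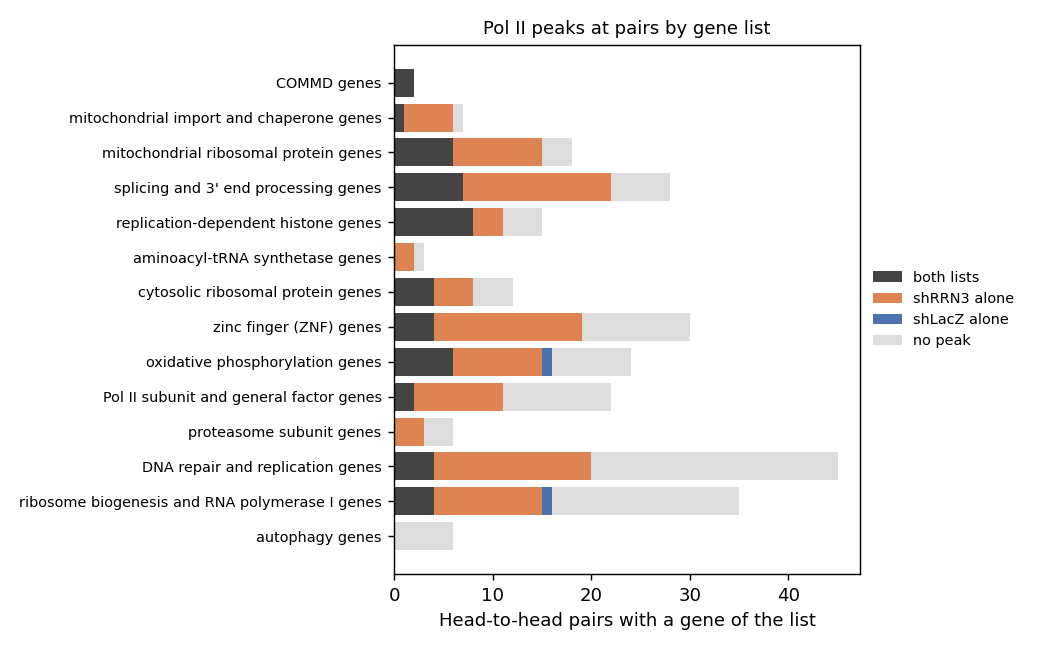
Number of head-to-head pairs with a gene of each list (horizontal axis), divided by whether a Pol II peak was found in both lists (dark), in shRRN3 alone (orange), in shLacZ alone (blue) or in neither (grey). Pairs with DNA repair and replication genes are the most numerous, with 20 of 45 occupied in shRRN3. The 6 pairs of the autophagy list used here have none.

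The chart of gene lists shows shRRN3 peaks at most pairs of the splicing (78.6%), mitochondrial ribosomal protein (83.3%) and histone (73.3%) lists. Mitochondrial import (85.7%), cytosolic ribosomal protein and aminoacyl-tRNA synthetase (66.7% each), zinc finger (63.3%) and oxidative phosphorylation (62.5%) pairs were also mostly occupied. Both COMMD pairs were occupied, and the share over all pairs was 49.2%. Pairs with exactly 1 gene on any of the 14 lists were examined for which side the peak took. The peak midpoint lay on that side at 21 of 37 pairs in shLacZ (56.8%, 39.5% to 72.9%) and at 65 of 106 in shRRN3 (61.3%, 51.4% to 70.6%).

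Peaks at the pairs stood higher in the longer list, but not at equal list length. At the 113 pairs with a peak in both, the median percentile was 63.0 in shLacZ and 82.9 in shRRN3. The percentile was higher in shRRN3 at 87 of the 113, with a median difference of 13.6 (8.35 to 21.6), and isolated TSSs gave 14.9 (11.6 to 20.6) with 260 of 354 higher. At equal list length 70 pairs had both peaks, 34 of them stood higher in shRRN3, and the median difference was -3.04 (-7.88 to 6.79). At isolated TSSs it was then 0.63 (-1.96 to 5.0). Spearman's rho of the percentiles across the 113 pairs was 0.37, and across isolated TSSs 0.20. The points share the libraries and are not independent. The 323 pairs occupied in shRRN3 alone had a median percentile of 59.6 (54.1 to 65.9), below the 82.9 (80.5 to 87.8) of the shared pairs.

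**Figure D5:**
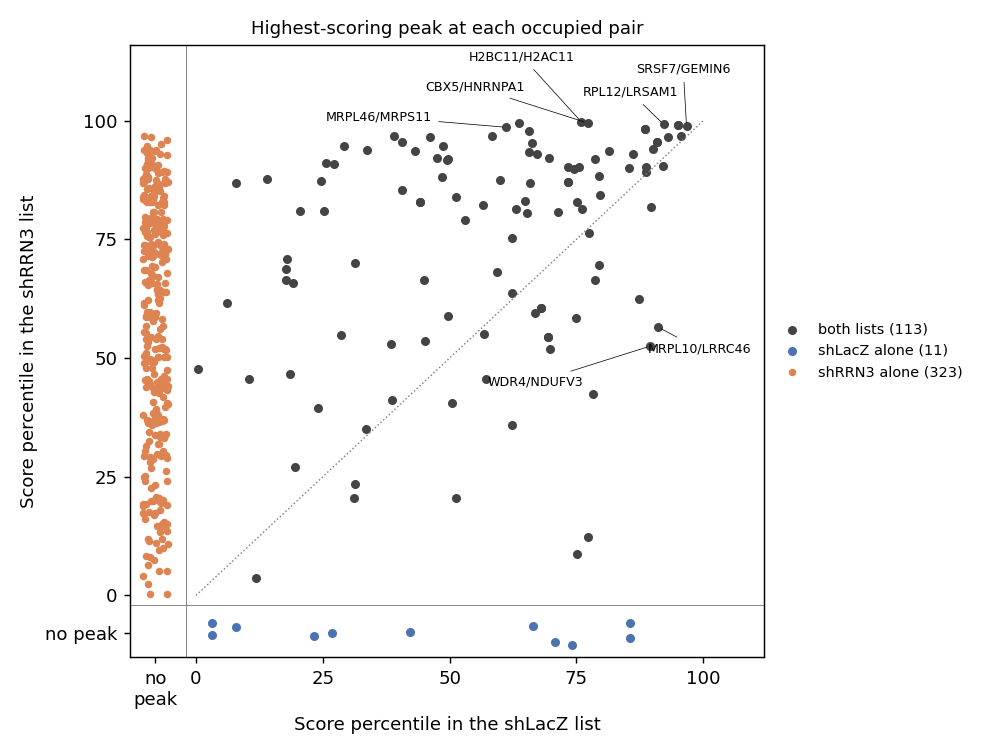
Score percentile of the highest-scoring peak at each occupied pair in the shLacZ list (horizontal axis) and the shRRN3 list (vertical axis), with pairs that have a peak in 1 list alone drawn in the strips marked no peak. Of the 113 pairs with both peaks (dark), 87 lie above the dotted line of equal percentile, on lists of unequal length.

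The plot of percentiles shows the shared pairs crowded at the top, with MRPL10-LRRC46 and WDR4-NDUFV3 among those that lie below the line. The 10 highest-scoring pairs of each list all had a peak in the other list, and 4 pairs were in both sets of 10, namely SRSF7-GEMIN6, RPL12-LRSAM1, H3C12-H2BC17 and H2AC17-H2BC17. The pairs of H2BC17 share a locus, and there the peaks ranked in each list do not overlap each other. The others in the shLacZ set include TADA3-ARPC4-TTLL3, with an acetyltransferase adaptor, at percentile 95.6 in shLacZ and 96.7 in shRRN3, and RPL18-SPHK2 at 92.1 and 90.5. WDR27-C6orf120, in the shRRN3 set, was at 88.5 and 98.2.

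The 11 pairs with a peak in shLacZ alone lay in 10 loci, and 54 pairs were in shLacZ alone at equal list length. Both top entries share DNAJB9, a chaperone gene of the endoplasmic reticulum, and 1 peak at percentile 85.6, which covered the minus-strand TSSs of PNPLA8 and THAP5. COQ5 with an unnamed gene model was at 74.2, GPATCH2-SPATA17 at 70.7, NUDT5-CDC123 at 66.4, BET1L-RIC8A at 42.2 and EMC1-MRTO4 at 26.9. In shRRN3 alone the highest were ANAPC5-RNF34, with a subunit of the anaphase-promoting complex, at 96.7, UBE2D3-CISD2, with a ubiquitin-conjugating enzyme, at 96.5, and NOL8-CENPP at 95.9. NEMP1-NAB2 was at 95 with its starts 980 bp apart and 1 peak of 1851 bp over both, and FUBP1-DNAJB4 was at 93.9. Each of these pairs has no shLacZ peak, which is no measure of how far below the caller's threshold its signal lay.

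Some well-known shared promoters were looked up by name. NPAT-ATM, COL4A4-COL4A3, COL4A6-COL4A5, SARS2-MRPS12 and TK1-AFMID had no peak in either list. PPAT-PAICS, the purine synthesis pair, and PDCD10-SERPINI1 had a peak in shRRN3 alone, at percentiles 36.3 and 52.1. The first of these peaks covered neither TSS and lay on the PAICS side, and the second covered the PDCD10 TSS alone. HSPD1-HSPE1, COL4A1-COL4A2, SURF1-SURF2 and TAP1-PSMB9 are not among the 887, because their gene bounds in this annotation do not meet the rule.

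Occupied pairs were spread over the genome. In shRRN3 the occupied share was highest on chromosome 21 (5 of 6 pairs), chromosome 18 (7 of 9) and chromosome 12 (37 of 57), and lowest on chromosome X (7 of 26) and chromosome 16 (12 of 41). In shLacZ the X chromosome had 1 of 26. The counts per chromosome were not adjusted for gene density or copy number.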

How the data were processed

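Pol II ChIP used the ChIP-IT Express Kit and an antibody from Active Motif, with sequencing on a BGISEQ-500. Each deposited list held coordinates, a name and a score per peak, called by the authors separately in each library. Peak names carry MACS. The aligner, versions, threshold, duplicate handling and use of the inputs are not given in the sources used here. The build, hg38, is from the submitters' processing notes. The deposited score was taken as 10 times −log10 p, an assumption that rests on lowest values of 50.03 and 50 and a ceiling of 3100, and served for ranks and limits inside 1 list, as a percentile among its peaks on the chromosomes examined.

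Genes came from GENCODE release 44. Intervals were Clopper-Pearson for shares, Newcombe for differences, matched log-scale Wald for ratios and order statistics for medians. Medians, percentiles and motif counts carry no test. Named pairs were the 10 highest-scoring per list, the 10 highest-scoring found in 1 list alone, well-known pairs, and the 4 highest-scoring per gene list. The text gives a selection of these. All autophagy and histone pairs were listed after their values were seen. Members, gene lists and motifs were chosen with earlier results of these data known. Some of the items chosen are not reported here. Alternatives changed the widening, distance, isolation, overlap, score limit, list length, TSS definition and histone pairs. The work used scipy 1.17.1, pysam 0.24.0, pandas 2.3.3, numpy 2.4.6 and matplotlib 3.10.9 under Python 3.11.15, and the code was tested on simulated data.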

Additional observations from a re-analysis of the deposited data

How the results depend on the processing

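The alternatives gave 128 values for 11 results. Most of the results are shares, counts or percentiles, which have no direction, and the differences and the ratio kept theirs. Of the values, 109 moved by less than their interval or, for counts, by less than 1.5 times, and 19 moved by more. The 109 include shLacZ values that cutting the shRRN3 list could not change. With peaks scoring at least the shLacZ median, the occupied shares were 8.57% in shLacZ and 38.4% in shRRN3, their excess over isolated TSSs 6.11 and 27.6 points, their ratio 4.49, the share of shRRN3-occupied pairs with a shLacZ peak 19.6%, and the median percentiles 49.6 and 61.5. With both lists at equal length, the shRRN3 share was 21.1%, its excess 15.7 points, the ratio 1.51, the shares of occupied pairs with a peak in the other list 56.5% for shLacZ and 37.4% for shRRN3, the pairs in 1 list alone 54 and 117, and the shRRN3 median percentile 52.0. With the TSS of the canonical transcript, which gave 984 pairs, the shRRN3 share was 53.8%. Against 2 independent isolated TSSs the excess was 5.47 and 21.7 points. The percentile difference at pairs with both peaks is not among the 11 results. It reversed at equal length, from 13.6 to -3.04 with an interval that includes 0. The comparison by shLacZ score, that percentile difference and the comparisons with other starts at equal length, the reduced list for pairs with a lncRNA gene, histone pairs left out of the TATAAA comparison, and the 2 checks of the peak side were added after the data were seen. No paired analysis was possible because each hairpin had 1 library. Depth limits every statement on absence, since a start without a peak may lie below the caller's threshold, and the longer shRRN3 list cannot be told apart from a difference in depth or enrichment between the libraries.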

Other observations

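Pairs whose 5' ends overlap, so that the plus-strand gene starts left of the minus-strand gene, fall outside the head-to-head rule. There were 509 of these, with a median overlap of 405 bp. They had a peak in 14.1% of cases in shLacZ (11.2% to 17.5%) and in 49.5% in shRRN3 (45.1% to 53.9%). Their shares minus those of the head-to-head pairs were 0.17 points (-3.52 to 4.09) and 0.35 points (-5.08 to 5.79).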
